A study of Homo sapiens with 2 samples.

Results

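The ribosomal RNA processing factors described here are the gene symbols that the authors entered under the Gene Ontology (GO) term rRNA processing for RNA bound by ALKBH5 in HL-60 cells. They were taken from the 100 entries of that term after leaving out ribosomal protein genes (1 entry), DDX and DHX helicases (11 entries) and entries of the KEGG pathways RNA transport and mRNA surveillance pathway (3 entries). This left 85 symbols of the 5851 named in any table, and the 85 stood on 81 distinct gene identifiers. HL-60 is an established human promyelocytic leukaemia line. ALKBH5 is a demethylase that erases N6-methyladenosine (m6A), a common mark of messenger RNA, and RNA held by an antibody against it was sequenced beside RNA of the whole lysate. The 2 libraries, 1 input (10% of the lysate) and 1 immunoprecipitate (80%), came from the same line, with no treatment in the labels and ALKBH5 as the entry under genotype for both. Titles and library names contradict each other on which library is which, and the groups follow the library names. A further 10% of the lysate went to a rabbit IgG control, which was not analysed here.

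The 3 tables used hold neither levels nor values by library, so a gene is described as listed or not listed, and nothing here is a difference between immunoprecipitate and input. Only entries of the 311 GO terms, the 38 KEGG pathways or a table of RNA-binding families could be listed. A gene that was not listed is therefore not shown to be unbound. The depth behind each listed gene is unknown. Of 8 promyelocyte markers 5 were listed (MPO, PRTN3, CD33, CEBPA and MYC) and ELANE, AZU1 and CTSG were not. Of 8 genes chosen as markers of other cells 2 were listed, EPCAM and PECAM1, while CD3E, MS4A1, HBB, ALB and COL1A1 were among those not listed. Whether HL-60 cells express any of these 8 was not checked. Of all protein-coding genes 26.9% were listed.

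Ribosomal RNA is made in the nucleolus as a long precursor, which is cut, trimmed and chemically modified while ribosomal proteins assemble on it. Small nucleolar RNAs (snoRNAs) guide the modifications, a large particle called the small-subunit (SSU) processome folds and cuts the part for the 40S subunit, and a separate set of factors and nucleases matures the 60S subunit. Dividing cells such as leukaemia lines make ribosomes at a high rate.

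In the authors' deposited table the term had 100 entries on 141 background genes, a rich factor of 2.13, a p of 1.34e-05 and a corrected p of 0.00437. The 100 entries stood on 96 distinct gene identifiers. The members were selected on presence in this row, so these values are a description. The label was checked against a list of 274 ribosome biogenesis genes in 17 roles, written from textbook knowledge. Of the 85 members, 79 stood on identifiers of that list and 6 did not. Among the 6 were DIEXF, HELQ, IGF2BP3, NEDD4 and SPPL2B.

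DIEXF is the older symbol of UTP25, itself a factor of the SSU processome. HELQ is a DNA helicase of strand break repair. IGF2BP3, SPPL2B and NEDD4 have older symbols in the reference that are the current symbols of ribosome biogenesis genes. IGF2BP3, an RNA-binding protein counted among the m6A readers, has the older symbol IMP3, the name of a U3 snoRNP protein. SPPL2B, an intramembrane protease, has the older symbol IMP4, the name of the partner of IMP3. NEDD4, a ubiquitin ligase, has the older symbol RPF1, the name of a 60S assembly factor. IGF2BP3 and SPPL2B were also entered under small-subunit processome, and NEDD4 under preribosome, large subunit precursor. IMP3 and RPF1 were not listed under their own symbols, and IMP4 was listed in the KEGG pathway Ribosome biogenesis in eukaryotes. An older symbol equal to the symbol of a gene of the pathway list occurred in 4 of the 81 member genes, RRP1B (older symbol RRP1) being the fourth, against 0.115% of the 5201 protein-coding genes that the GO or KEGG table named. Whether these 3 entries stand for the genes of the shared name was not tested.

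A further 6 members carried an identifier of a gene with another symbol. SENP3-EIF4A1, a read-through symbol, stood on the identifier of SENP3, a SUMO protease of 60S maturation. CH507-9B2.5 stood on that of PWP2, a core protein of the SSU processome, which was not listed under its own symbol. RP11-727F15.9, RP1-122O8.7, AF196970.3 and a further symbol named after a genomic clone stood on the identifiers of WDR74, MDN1, SUV39H1 and EXOSC10, which were listed beside them. So 8 members shared 4 identifiers, and 77 had an identifier that no other symbol carried.

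The promoter sequences of the members were read from RefSeq (GRCh38.p14) because a shared short motif was one of the features the listing did not use. Each window ran from 250 bases before to 50 after a gene's start, and 69 of the 81 member genes had one. Among those without were NOLC1, MPHOSPH10, RRP1B, RRP12, BOP1, DCAF13, NOP58, PIH1D1, CHD7, SPPL2B and ERI1. The E-box CACGTG, the letters bound by MYC and related factors, was in the window of 26 of the 69 (37.7%, 95% interval 26.3 to 50.2%), against 13.0% of 4321 protein-coding genes that the GO or KEGG table named, 10.9% of protein-coding genes and 8.77% of all genes with a window. The stretches below show the 100 bases before the start of 6 members whose E-box lay wholly within them and whose stretch held no start of a gene on the other strand. In HELQ the E-box began 61 bases before a start, and its stretch is not shown. Letters in capitals are the E-box, and each stretch reads 5′ to 3′ towards the gene.
EXOSC5, chr19:41397360-41397459, minus strand: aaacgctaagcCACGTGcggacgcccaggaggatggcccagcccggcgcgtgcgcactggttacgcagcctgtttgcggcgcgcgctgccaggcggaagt
NOL8, chr9:92325351-92325450, minus strand: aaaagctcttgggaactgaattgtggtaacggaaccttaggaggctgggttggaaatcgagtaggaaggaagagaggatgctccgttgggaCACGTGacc
TEX10, chr9:100352943-100353042, minus strand: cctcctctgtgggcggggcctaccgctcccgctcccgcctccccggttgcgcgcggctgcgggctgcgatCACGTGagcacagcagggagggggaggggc
UTP18, chr17:51260446-51260545, plus strand: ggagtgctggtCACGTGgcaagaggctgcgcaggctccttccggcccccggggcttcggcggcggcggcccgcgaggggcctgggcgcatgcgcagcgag
UTP20, chr12:101280005-101280104, plus strand: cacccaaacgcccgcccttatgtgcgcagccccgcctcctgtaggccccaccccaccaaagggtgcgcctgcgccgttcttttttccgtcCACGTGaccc
XRN2, chr20:21303231-21303330, plus strand: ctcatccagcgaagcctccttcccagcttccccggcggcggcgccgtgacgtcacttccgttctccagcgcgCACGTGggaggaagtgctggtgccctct

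In NOL8 and UTP20 the E-box ended within the last 10 bases before the start. In UTP18 and EXOSC5 the E-box shown lay near the far end of the stretch. Both had another beyond the stretch, 4 bases after the start in UTP18 and 14 in EXOSC5. Of the 26 member genes with an E-box, 23 had one that began within 50 bases of a start (88.5%, 95% interval 69.8 to 97.6%), against 253 of the 560 named genes with one (45.2%, 41.0 to 49.4%). Many of these lay just after the start, as in FBL, PES1, WDR43 and NOP14. The genes were spread over the roles: WDR43 and UTP4 of UTP-A, PWP2 and UTP18 of UTP-B, and BYSL, ESF1, NOL6, NOP14, RCL1, UTP14A and UTP20 of the rest of the SSU processome. FBL and RRP9 of the box C/D particles had one, as did EBNA1BP2, MDN1, MRTO4, NOL8 and PES1 of 60S assembly, PELP1 and TEX10 of the rixosome, and WDR46. Of the 9 exosome genes with a window 1 had an E-box, EXOSC5. Outside the pathway list it was in HELQ, IGF2BP3 and UTP25.

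The palindrome TCGCGA was in the window of 9 member genes (13.0%, 95% interval 6.14 to 23.3%), against 7.8% of named genes, and the interval held that value. In 4 members it lay in the 100 bases before the start, with the palindrome in capitals.
NOL9, chr1:6554514-6554613, minus strand: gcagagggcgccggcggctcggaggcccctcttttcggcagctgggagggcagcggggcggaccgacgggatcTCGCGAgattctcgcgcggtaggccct
NOL11, chr17:67717836-67717935, plus strand: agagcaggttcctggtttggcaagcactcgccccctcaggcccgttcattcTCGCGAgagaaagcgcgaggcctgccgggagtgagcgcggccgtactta
NOP14, chr4:2963407-2963506, minus strand: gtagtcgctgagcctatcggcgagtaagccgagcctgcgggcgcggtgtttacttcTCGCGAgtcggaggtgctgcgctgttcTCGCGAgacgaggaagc
UTP14A, chrX:129906064-129906163, plus strand: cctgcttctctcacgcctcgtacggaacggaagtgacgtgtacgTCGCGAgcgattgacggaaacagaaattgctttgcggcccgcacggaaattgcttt

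NOP14 had 2 copies in its stretch, while NOL9, NOL11 and UTP14A had 1 each. The other 5 motifs were searched on both strands as well. CCGGAAG, the core bound by ETS factors, was in 33.3% of member windows against 25.1%. GCGCATG, part of the NRF1 site, was in 14.5% against 9.95%. AAGATGG, part of the YY1 site, was in 18.8% against 11.3%. CCAAT was in 42.0% against 44.4% and TATAAA in 5.8% against 8.47%. For these 5 the 95% interval of the members held the share of the named genes. Longer forms of the palindrome, NRF1 and YY1 motifs had been counted first, before the shorter forms above. The palindrome flanked by TC and GA was in 4 member windows (5.8%, 95% interval 1.6 to 14.2%), against 1.18% of named genes, so that the interval of this form lay above the named genes. The NRF1 letters followed by CGC were in 7.25% against 3.12%, and the YY1 letters followed by CGGC in 5.8% against 3.12%, both with intervals that held the share of the named genes. A match is a description of letters, not of a bound factor, and all 7 motifs were chosen with the member names known.

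Of the 81 member genes, 11 had a snoRNA gene within their span (13.6%, 95% interval 6.98 to 23.0%), against 4.02% of named protein-coding genes. NOP56, a core protein of box C/D particles on chromosome 20 from 2652632 to 2658393, spanned SNORD110, SNORA51, SNORD86, SNORD56 and SNORD57. NOP58, its paralog in the same particles, spanned SNORD70, SNORD70B, SNORD11B and SNORD11 on chromosome 2. DKC1, the pseudouridine synthase of box H/ACA particles, spanned SNORA36A and SNORA56. WDR43 spanned SNORD92, SNORD53 and SNORD53B, and NOL11, GLTSCR2 (NOP53), IGF2BP3 and ERI1 spanned 1 each. In BMS1, UTP20 and NEDD4 the snoRNA had only a LOC name. Without such names the members had 8 of 81 (9.88%) and the named genes 2.21%.

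Of the 69 member genes with a window, 31 had the start of a gene on the other strand within 1000 bases upstream, head to head (44.9%, 95% interval 32.9 to 57.4%), against 29.6% of named genes. The closest pair was MRM2 with NUDT1, 21 bases apart. Of all protein-coding genes 26.9% were listed. The neighbour was itself listed for 10 of the 31, a count not read as above that share. One such pair was NOC4L, of the SSU processome, with the helicase DDX51 at 138 bases, and both were entries of rRNA processing. Others were BYSL with MED20, RRP9 with PARP3, RRP8 with ILK, MTREX with DHX29, FCF1 with AREL1 and UTP18 with MBTD1. Since the positions of peaks were not analysed here, peaks of such neighbours cannot be told apart in these tables.

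These features were next set beside genes of the pathway list that were no members. An E-box was in 20.0% of the 95 with a window that were listed only elsewhere (12.5 to 29.5%) and in 19.7% of the 71 that were not listed (11.2 to 30.9%). Head-to-head starts were at 36.8% and 36.6%, and snoRNA genes at 5.31% and 4.82%. The members' 95% interval lay above both shares for the E-box and for snoRNA genes and held both for head-to-head starts, while the intervals themselves overlapped for each feature. These differences were not tested. The members were annotated to rRNA processing itself, whereas the pathway list is wider.

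**Figure D1:**
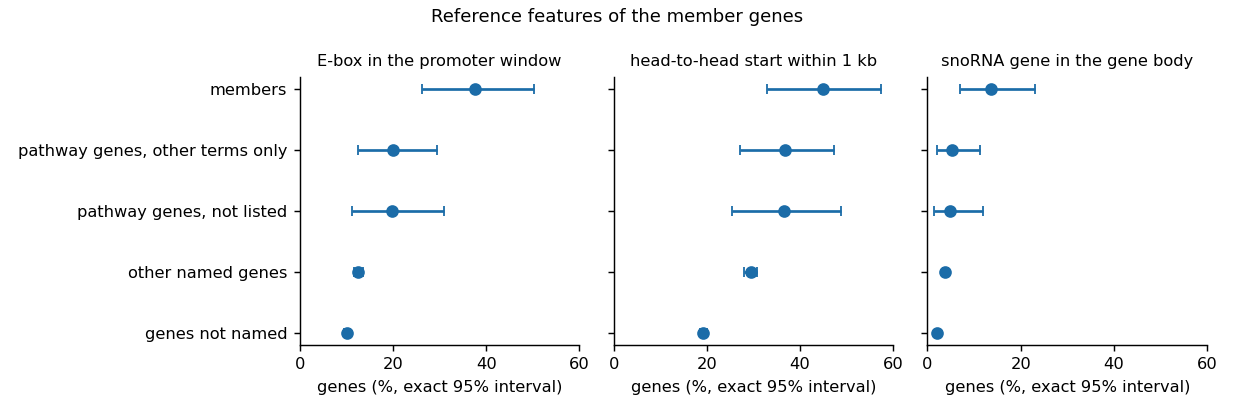
Share of genes with each reference feature (x axes, %, bars are exact 95% intervals) in the members, in other genes of the pathway list by listing, and in other protein-coding genes, named or not named by the GO or KEGG table (y axis). The members have the highest point in each panel, 37.7% for the E-box, 44.9% for head-to-head starts and 13.6% for snoRNA genes, and their bars overlap those of the other pathway genes while lying above the points of these for the E-box and snoRNA genes.

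Ordered by role, the SSU processome gave the most members by raw count, and the roles differ in size. A member had to be entered under rRNA processing, so counts of members by role follow GO annotation and the rule. Listing in any table, a wider measure than membership, held for 26.9% of all protein-coding genes. The roles are those of the list, which gives each gene a single role though it may act in others. All 6 genes of UTP-A, the subcomplex that first binds the precursor and is needed for its transcription, were members: HEATR1, NOL11, UTP4, UTP15, WDR43 and WDR75. Of UTP-B, a second early subcomplex, TBL3, UTP6, UTP18, WDR3 and WDR36 were members, and the sixth, PWP2, had its identifier listed as given above. Some entries of the term small-subunit processome, WDR46 and DIEXF (UTP25) among them, were placed outside the list's SSU processome roles. Of 31 further genes that the list placed within these roles 17 were members. They included the GTPase BMS1 and its partner RCL1, the nuclease FCF1, MPHOSPH10 of the U3 particle, the scaffold UTP20 and its neighbours PDCD11 and NOL6, and the assembly factors BYSL, ESF1, KRR1, NOC4L, NOP14, RRP7A, UTP3, UTP11, UTP14A and DCAF13. A further 7 were listed only elsewhere, among them AATF, ABT1, IMP4, NAT10, NGDN and NOL10. Another 7 were not listed, among them IMP3, NOL7, NOP9, RRP36, SURF2 and UTP14C.

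The snoRNP proteins are given by class, beside the 26.9% of all protein-coding genes that were listed. Of 6 genes for box C/D particles, which guide methylation of the ribose, 4 were members: the methyltransferase FBL, the core proteins NOP56 and NOP58, and RRP9 of the U3 particle. SNU13 and FBLL1 were not listed. Of 6 genes for box H/ACA particles, which guide pseudouridine formation, DKC1 was a member, GAR1 was listed elsewhere, and NAF1, NHP2, NOP10 and SHQ1 were not listed. The difference between both classes was not tested. In the list's role of snoRNP assembly NOLC1, PIH1D1 and GLTSCR2 (NOP53) were members. GLTSCR2 stands in this role by the list's placement alone, and a part in snoRNP assembly was not checked.

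The nucleases were led by the RNA exosome, which trims the 3′ ends of precursors. EXOSC2, EXOSC5, EXOSC6, EXOSC7, EXOSC8 and EXOSC9 of its core, the catalytic EXOSC10 and DIS3, and the helicase SKIV2L2 (MTREX) were members, 9 of 18 genes. The core genes EXOSC1, EXOSC3 and EXOSC4 were not listed, nor were the cofactors C1D and MPHOSPH6. Of 22 other nuclease genes 5 were members: XRN2, which trims 5′ ends, LAS1L and its kinase partner NOL9, which cut and process the second internal spacer, and the exonucleases ERI1 and REXO4. None of the 11 genes for RNase MRP and RNase P was a member, which follows annotation and the rule and is no statement on binding. Listed in some table were 12 of 18 exosome genes (66.7%), 13 of 22 other nuclease genes (59.1%) and 4 of these 11 (36.4%). The share of all protein-coding genes was 26.9%. POP4 was in the row but left out by the rule as an entry of RNA transport, POP1, RPP14 and RPP40 were listed elsewhere, and 7 were not listed.

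For the 60S subunit, all 3 genes of the PeBoW complex, BOP1, PES1 and WDR12, were members. So were 8 of 52 further assembly genes: the large ATPase MDN1, the AAA ATPase NVL and its partner WDR74, EBNA1BP2, MRTO4, NOL8, RRP1 and RRP1B. Most of the other 60S genes, 35, were listed only elsewhere, among them AFG2A, AFG2B, BRIX1, CCDC86, EFL1 and EIF6. Another 9 were not listed, among them BCCIP, CEBPZ, LYAR, NIFK, NPM3 and NSA2. PELP1, TEX10 and WDR18 of the rixosome, which works with LAS1L, MDN1 and SENP3, were members. In the list's role of 40S maturation 3 of 15 genes were members: RRP8, RRP12 and the nuclease NOB1, which makes the last cut of 18S rRNA. RRP8 stands in this role by the list's placement alone, and a part in 40S maturation was not checked.

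Of 25 further genes that the list placed under modification of rRNA 2 were members, the methyltransferases EMG1 and MRM2. MRM2 acts on mitochondrial rRNA and was entered under mitochondrion and mitochondrial matrix. Another 15 were listed only elsewhere. None of the 20 genes placed in the separate role for mitochondrial rRNA, which leaves MRM2 out, was a member, and 10 of them were listed elsewhere. SUV39H1, a histone methyltransferase that silences ribosomal DNA, WDR46 and WDR55 were members that the list placed with RNA polymerase I and nucleolar genes. WDR46 was also an entry of the term small-subunit processome. CHD7, a chromatin remodeller, was the only member of the last group of 23.

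Over all roles, 188 of the 274 pathway genes were listed in some table (68.6%, 95% interval 62.8 to 74.1%): 73 members, 2 left out by the rule and 113 elsewhere. Of the 73, MTREX and NOP53 were entered under older symbols, SKIV2L2 and GLTSCR2. By current symbols only, 66.1% of the pathway genes were listed. Of all protein-coding genes 26.9% were listed. Since rRNA processing and other nucleolar terms were themselves listed, genes of this pathway could become listed through them, and the list was written with earlier results known. The median genomic length was 16.5 kb in pathway genes that were not listed, 25.7 kb in those listed elsewhere only and 25.5 kb in the members. The part of gene length in the listing was not tested.

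**Figure D2:**
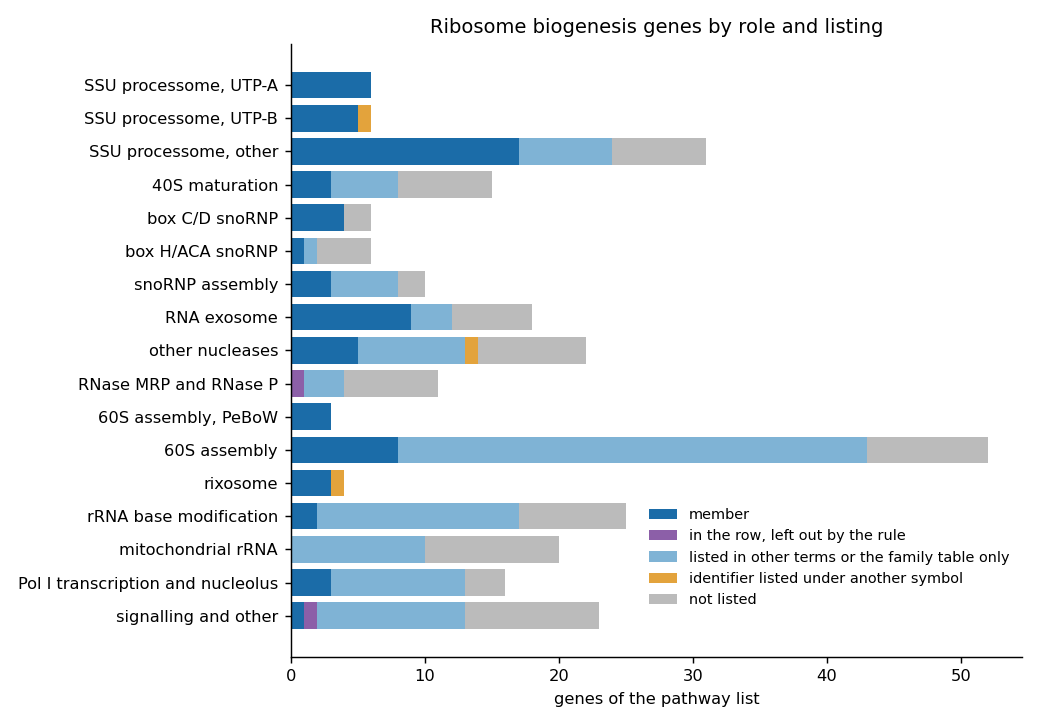
Number of ribosome biogenesis genes (x axis) in each of 17 roles (y axis, SSU is the small subunit), coloured by listing. UTP-A and PeBoW consist of members only, 60S assembly is mostly listed in other terms, and no gene placed in the roles of RNase MRP and RNase P or of mitochondrial rRNA is a member, the mitochondrial MRM2 being drawn under rRNA base modification. Membership follows entry under rRNA processing and the rule.

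The members were entered under 3 to 16 terms each with a median of 8, against a median of 4 for all named symbols. NOL8 had the fewest and NEDD4 the most. Nucleolus named 77 of the 85 (90.6%, 95% interval 82.3 to 95.8%), against 8.67% of the 5614 symbols of the GO and KEGG tables. Among the 8 outside it were AF196970.3, CH507-9B2.5, EXOSC8, HELQ, NOB1, RRP7A and SUV39H1. Nucleoplasm named 75 (88.2%, against 34.5%), and RNA binding 64 (75.3%, against 14.6%). Cytosol named 25 (29.4%, 95% interval 20.0 to 40.3%, against 43.9%), and ATP binding 10 (11.8%, against 14.6%), a share near that of all symbols. These shares follow GO and KEGG annotation and carry no measurement of the single gene.

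Narrower terms split the members by particle. Small-subunit processome named 29 members (34.1%, against 0.588%), which were 87.9% of its 33 entries, and the other 4 were NGDN, NOL10, PRKDC and XRCC5. In the authors' deposited table it had 39 background genes and a corrected p of 0.18. All 13 entries of nuclear exosome (RNase complex) were members, on 11 identifiers (15.3% of members, against 0.232%), and they included NVL and WDR74 beside the exosome genes. Its corrected p was 1 in the authors' deposited table. Preribosome, large subunit precursor named 13 members (15.3%, against 0.41%), 56.5% of its 23 entries. Its background was 23 genes and its corrected p 0.202 in the authors' deposited table, and the 23 entries stood on 21 identifiers. Fibrillar center, the part of the nucleolus where ribosomal DNA is transcribed, named 12 (14.1%, against 1.44%), among them FBL, HEATR1, NOP56, NOP58, UTP4, UTP15 and WDR43.

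The KEGG pathway Ribosome biogenesis in eukaryotes named 28 members (32.9%, against 1.02%), 49.1% of its 57 entries. In the authors' deposited table it had 105 background genes and a corrected p of 0.268. The exosome genes were not among its entries. They were entered under RNA degradation instead, which named 11 members (12.9%, against 0.802%), XRN2 and SKIV2L2 included. The GO term 3'-5'-exoribonuclease activity named 9 members (10.6%, against 0.41%). Regulation of mRNA stability also named 9 (10.6%, against 1.28%), of which DIS3 and 6 EXOSC genes made up 7, with IGF2BP3 among the rest. So the exosome members were also entries of terms on the decay of other RNAs.

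**Figure D3:**
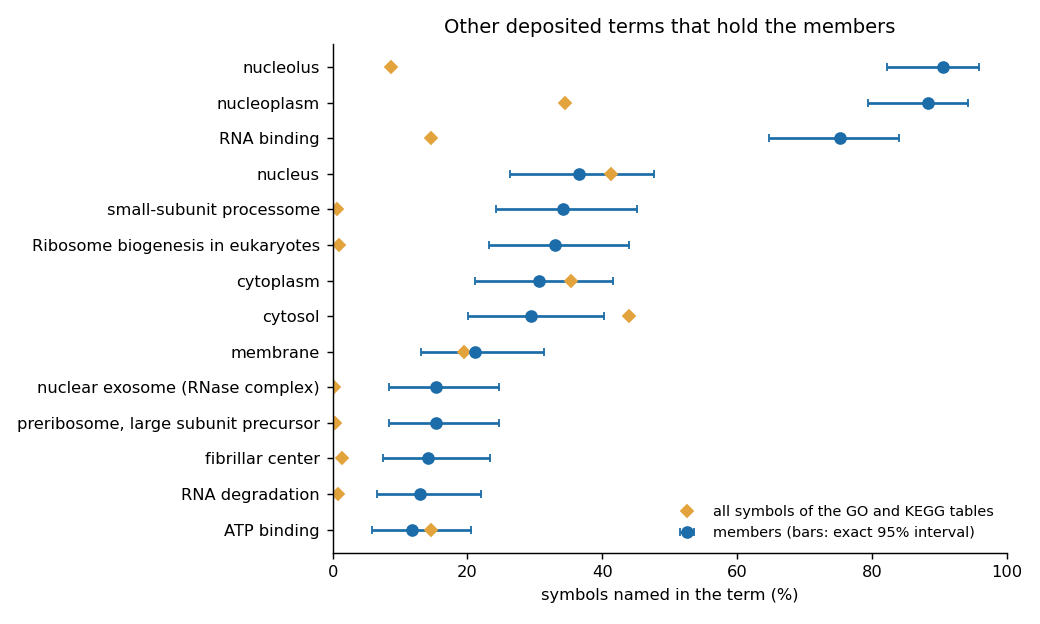
Share of the 85 members named in each of the 14 other terms that hold most of them (blue points with exact 95% intervals) and of all 5614 named symbols (orange diamonds), in %. Nucleolus, nucleoplasm and RNA binding lie far above the share of all symbols, while nucleus, cytoplasm, membrane and ATP binding lie within the interval of it and cytosol lies below.

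The family table, which the rule did not use, sets each of its genes beside 1 or more of 4 protein families that bind RNA. How these pairs were made is not described in the sources used here. A pair is not read as the gene belonging to the family, and presence in the table does not mark its protein as RNA-binding. The family table held 9 of the 85 members (10.6%, 95% interval 4.96 to 19.2%), against 19.8% of the GO and KEGG symbols. The members' share was thus below that of all named symbols by more than its counting interval when counted by symbol. By distinct identifier it was 11.1% (5.21 to 20.0%), against 20.5% of all identifiers, with the upper limit just under that value. Other entries of nucleolus were in the table in 13.7% of cases (10.5 to 17.4%) and other entries of RNA binding in 15.1% (12.6 to 17.8%), both within the members' interval. Of the 15 symbols that the rule left out, 3 were in the table (20.0%, 4.33 to 48.1%).

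**Figure D4:**
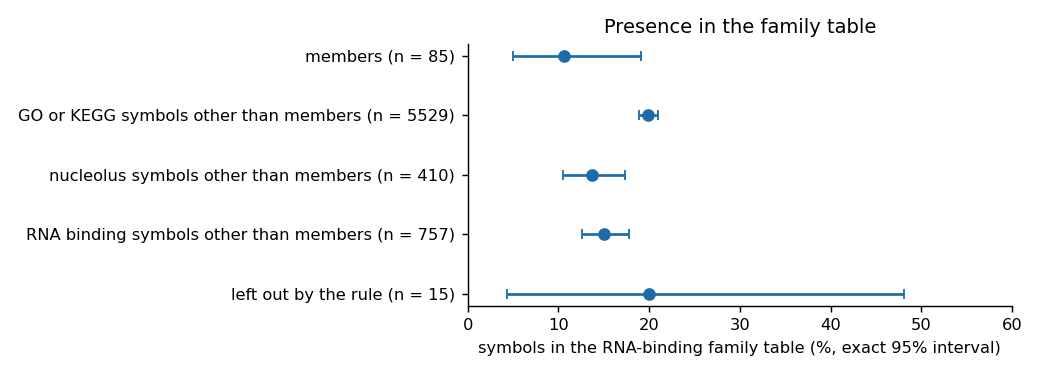
Share of symbols present in the RNA-binding family table (x axis, %, points with exact 95% intervals) for the members and 4 sets of other symbols. The members lie at 10.6%, beside 13.7% for other nucleolar symbols, 15.1% for other RNA binding symbols and 19.9% for all other GO or KEGG symbols.

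Among the 9 were CH507-9B2.5, TBL3 and WDR36 of UTP-B, EXOSC6 of the exosome core, NOL9, MDN1, RRP1 and SPPL2B. No member of UTP-A and none of the box C/D, box H/ACA or rixosome genes was in the table. Beside 10.6% of all members and 19.8% of all named symbols, absences in roles this small are not read as a result. With PWP2's identifier counted through CH507-9B2.5, 3 of the 6 UTP-B genes were present, a count too small to compare with other roles. Of the 9, 5 were paired with all 4 families (55.6%, 95% interval 21.2 to 86.3%), against 62.2% of the 1348 symbols of the table. These were CH507-9B2.5, EXOSC6, MDN1, SPPL2B and WDR36. TBL3 and NOL9 lacked the pairing with the family named CCHC ZF,RRM, and RRP1 that with the PUF family as well. Every one of the 1348 symbols was paired with RRM, so the pairing with RRM does not separate the members.

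The genomic length of the member genes, introns included, had a median of 25.5 kb and ranged from 2.02 kb for UTP3 to 189 kb for CHD7. The named protein-coding genes had a median of 35.4 kb, and family table genes one of 42.0 kb. Among named genes the share in the family table was 14.5% in the shortest of 4 equal length bins (up to 15.6 kb), 20.2% and 20.1% in the middle bins and 25.5% in the longest. Of the members 32 symbols fell in the shortest bin, 3 of them in the table (9.38%). In the next bins 4 of 25, 1 of 18 and 1 of 10 were in it. The members' share was the lower one in each bin, on counts of 1 to 4. Within the members, those in the table had a median length of 23.8 kb and the others 26.0 kb.

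**Figure D5:**
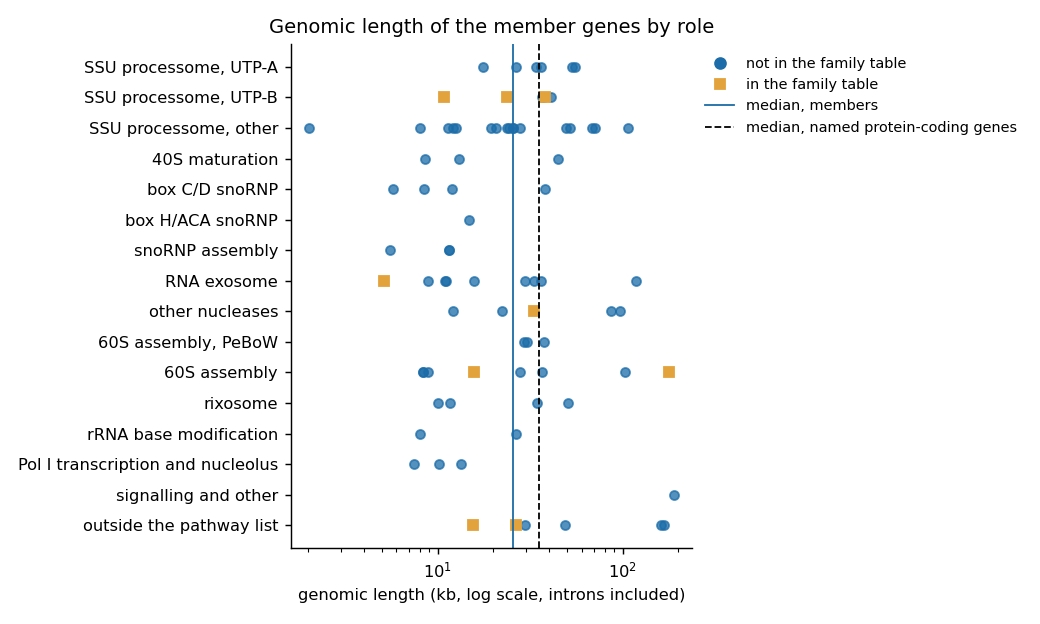
Genomic length (x axis, kb, log scale) of the 81 member genes by role (y axis), with genes of the family table as squares, the members' median as a solid line (25.5 kb) and that of named protein-coding genes as a dashed line (35.4 kb). Both kinds of gene spread over the range, from EXOSC6 at 5.16 kb to MDN1 at 177 kb among the squares.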

How the data were processed

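RNA bound by ALKBH5 and input RNA of HL-60 cells were sequenced as 1 library each from stranded mRNA kits, per the labels' protocols. The submitters' processing notes name hg38 as the build. The sources used here do not give the aligner, the peak caller or its thresholds. The GO table (311 terms) and KEGG table (38 pathways) give, per the file headers, each term's count of input entries and of background genes, a rich factor (a fold, or ratio, of input over background entries relative to all terms), the authors' p-value and corrected p-value, and the entries as identifier and symbol. The family table holds names only. Depth is unknown.

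The members, the pathway list and the motifs were chosen with earlier results of these data known. Members are named within their role (all but 2, a symbol named after a genomic clone and a member that is not reported here), and pathway genes that are no members in alphabetical order, up to 6 a role. Symbols were matched to RefSeq genes of GRCh38.p14 by current and then older symbols. Shares carry exact Clopper-Pearson 95% intervals (scipy 1.17.1, Python 3.11.15), which cover counting error only, and genes are not independent replicates. No test was run, since there is 1 library per group and set tests were not used. The functions were tested on simulated data. Protein features were planned and not computed, because protein sequences were not used here.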

Additional observations from a re-analysis of the deposited data

How the results depend on the processing

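A set of 9 results was recomputed under 20 alternatives, 9 planned and 11 added after seeing the data, and each value stayed within the interval of the reported one (for length, its interquartile range) or, for counts, within 1.5 times. One of them, counting pathway genes as listed only by a term other than rRNA processing, could not remove a member, since each was named by at least 3 terms. The number of members was 81 by distinct identifier, 100 without the exclusions and 82 without IGF2BP3, NEDD4 and SPPL2B. The share in the family table ran from 9.76% without these 3 to 12.0% without the exclusions, and the interval of the latter (6.36 to 20.0%) reached the 19.8% of all named symbols. The share with an E-box was 37.3% without these 3, and 36.7% in genes with 1 promoter window, against 10.8% of named genes with 1 window. Leaving out a replicate was not possible with 1 library per group. No paired analysis was possible because no result comes from a test between groups.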

Other observations

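The 15 entries of rRNA processing that the rule left out were RPL14, the helicases DDX10, DDX17, DDX21, DDX27, DDX47, DDX49, DDX51, DDX52, DDX54, DDX56 and DHX37, and EIF4A3, GEMIN4 and POP4. Of these, 3 were in the family table.

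The KEGG pathway Ribosome biogenesis in eukaryotes named 29 symbols that were no members. Factors of 60S maturation and export were among them, with EFL1, EIF6, GNL2, GNL3, GTPBP4, LSG1, NMD3 and the exportin XPO1. So were the kinases RIOK1 and RIOK2 of the 40S subunit and the catalytic subunits of casein kinase 2, CSNK2A1 and CSNK2A2.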
